A study of Mus musculus with 4 samples.

Results

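Collagens are the main structural proteins of the extracellular matrix, each built from chains that wind around each other in a helix. Fibrillar collagens form the tensile fibres of connective tissue, collagen IV forms the sheet under epithelia and around vessels, FACIT collagens sit on the surface of fibrils, and other chains form beaded filaments, hexagonal nets, anchoring fibrils or membrane proteins. In mammary tumours most fibrillar collagen is known to come from stromal fibroblasts, while epithelial and endothelial cells also deposit basement membrane.

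The collagen genes were all genes whose probe sets carry a single symbol of the form Col, a number, a and a number in the array's annotation. There were 42 such genes among 18193 genes named on the array, read by 82 probe sets. A gene with several probe sets is represented by the one that was brightest on average over the 4 arrays. Of these, 34 were left after the dimmest 40% of probe sets had been removed (13331 genes in all) and are called tested below, and 8 were not. The 42 genes fell into 11 fibrillar, 6 basement membrane, 9 FACIT and 16 other genes. The basement membrane class holds collagen IV only, and Col18a1 counts among the other genes.

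RNA was measured on Affymetrix mouse 430 2.0 arrays, 1 for each of 4 tumours grown in nude mice after transplantation of Eph4 cells, a mouse mammary epithelial cell line. All transplanted cells had been transduced with ETV6-NTRK3, an oncogene made by fusing a transcription factor gene to a neurotrophin receptor kinase. The 2 Eph_EN_DN tumours came from cells that made TAM67 as well, a truncated c-Jun that acts as a dominant negative on the AP-1 transcription factor. The 2 Eph_EN tumours came from cells with the fusion alone, and the comparison asks what AP-1 contributes to the tumours that the fusion starts. Nude mice lack a thymus and most T cells but keep fibroblasts, vessels and myeloid cells. Host and graft are both mouse, so the arrays do not tell stromal from tumour cell RNA, and fewer cells of a type and less RNA per cell cannot be told apart. The labels state neither how many clones were transplanted nor that the 2 tumours of a group grew in different animals. The p-values therefore cover only the spread among these 4 tumours, part of which may be technical.

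Values are the deposited intensities in linear units. Differences are Eph_EN_DN minus Eph_EN on the scale log2(intensity + 16), n = 2 tumours each, and an adjusted p under 0.05 in limma over all genes tested counted as passing. A probe set's intensity depends on its probes as well as on its transcript, so genes are not ranked by level.

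No collagen gene passed the test. Of the 34 tested, 0 were higher and 0 lower, against 0.135% of all genes higher and 0.42% lower, and the lowest adjusted p were those of Col1a2, Col12a1 and Col1a1. Most differences were negative: 25 of 34 collagen genes were below 0 (47.8% of all genes), and the median was -0.43 for the collagen genes and 0.019 for all genes. Over all 42 members, dim ones included, 30 were below 0 and the median was -0.36. In 20 of the 34 both Eph_EN_DN tumours lay below both Eph_EN tumours, which held for 20% of all genes, and in 5 both lay above, which held for 20.2%. At an unadjusted limma p under 0.05, 15 collagen genes were lower and 0 higher, against 4.94% and 4.86% of all genes. With the median of the list for every array expressed relative to each gene's own mean, Eph_EN_DN tumours stood at -0.18 and -0.18 and Eph_EN tumours at 0.047 and 0.34. Eph_EN tumour 2 had the highest value of the 4 tumours in 22 of 34 collagen genes, and in 4000 of 13331 genes overall.

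**Figure D1:**
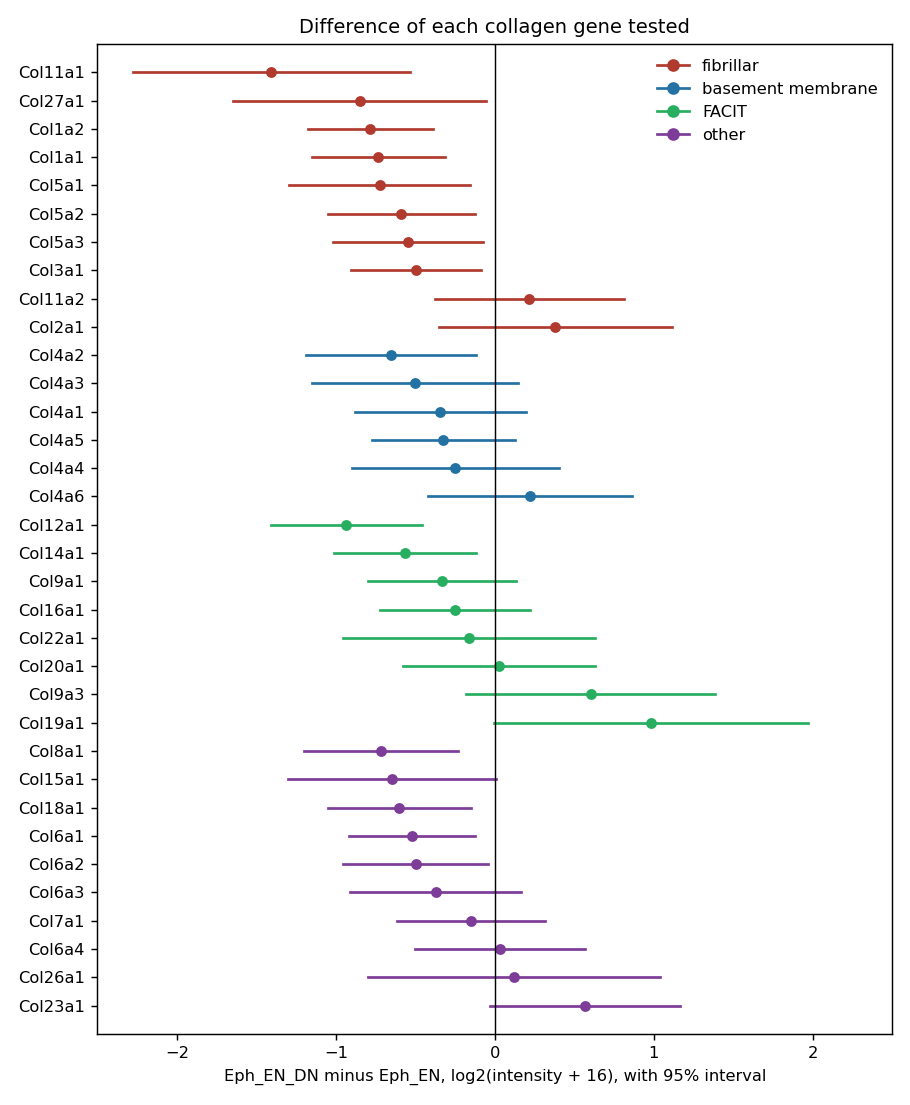
Difference between Eph_EN_DN and Eph_EN tumours for each of the 34 collagen genes tested, on the scale log2(intensity + 16), with the 95% interval from limma as bars and the class as colour. Of the points, 25 lie left of 0, and no gene had an adjusted p under 0.05.

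Of the fibrillar genes, 10 of 11 were tested and 8 were negative, with a median of -0.66. The 2 chains of collagen I, the main fibre of stroma, were both lower in the Eph_EN_DN tumours without passing. Col1a1 read 2434 and 2376 units in the Eph_EN_DN tumours and 3202 and 5010 in the Eph_EN tumours. Col1a2 read 1846 and 1672 units in the Eph_EN_DN tumours and 2648 and 3475 in the Eph_EN tumours. The groups did not overlap in either chain, and the Eph_EN tumours differed from each other by more than the Eph_EN_DN tumours did. The difference was -0.73 ± 0.20 for Col1a1 (SE, limma adjusted p = 0.153, 95% interval -1.15 to -0.31). For Col1a2 it was -0.78 ± 0.19 (limma adjusted p = 0.0857, 95% interval -1.18 to -0.39).

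The Col1a2 promoter is shown because this chain had the lowest adjusted p of the family. The window covers 250 bases before and 50 after the annotated start (RefSeq, GRCm38.p6, chr6:4505368-4505667, + strand). Capitals mark the letters CCAAT, the CCAAT box, or ATTGG, its other strand, and there are 2 matches.
Col1a2: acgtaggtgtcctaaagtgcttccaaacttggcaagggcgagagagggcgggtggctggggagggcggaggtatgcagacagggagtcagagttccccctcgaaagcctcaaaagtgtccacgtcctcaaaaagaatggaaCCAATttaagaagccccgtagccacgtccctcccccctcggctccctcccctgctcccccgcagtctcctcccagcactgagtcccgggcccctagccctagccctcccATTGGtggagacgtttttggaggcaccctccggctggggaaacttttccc

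Collagen III, which forms thin fibres together with collagen I, did not separate the groups as cleanly. Col3a1 read 5869 and 4019 units in the Eph_EN_DN tumours and 5799 and 8120 in the Eph_EN tumours. Eph_EN_DN tumour 1 was level with Eph_EN tumour 1, so the groups overlapped (-0.50 ± 0.19, limma adjusted p = 0.396). A dimmer Col3a1 probe set read 239 and 169 units in the Eph_EN_DN tumours and 347 and 574 in the Eph_EN tumours, without overlap (-1.09). The probe sets of this gene thus gave the same sign and unequal sizes.

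Collagen V starts and limits the growth of collagen I fibrils, and all 3 of its chains had negative differences. Col5a1 read 214 and 282 units in the Eph_EN_DN tumours and 300 and 577 in the Eph_EN tumours (-0.72 ± 0.27, limma adjusted p = 0.367). Col5a2 read 1423 and 1130 units in the Eph_EN_DN tumours and 1543 and 2374 in the Eph_EN tumours (-0.59 ± 0.22, limma adjusted p = 0.367). Col5a3 read 156 and 208 units in the Eph_EN_DN tumours and 254 and 289 in the Eph_EN tumours (-0.55 ± 0.22, limma adjusted p = 0.426). The groups did not overlap in any of these probe sets, although Eph_EN tumour 1 lay close to the nearer Eph_EN_DN tumour in Col5a1 and Col5a2. A dimmer Col5a2 probe set read 318 and 218 units in the Eph_EN_DN tumours and 260 and 492 in the Eph_EN tumours, with overlap (-0.42). In the further probe sets of Col5a1 and Col5a3 the groups did not overlap.

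The remaining fibrillar genes were dim. Col11a1, a chain of cartilage fibrils that is also known from the stroma of human carcinomas, had the largest difference of any collagen gene tested in size, with a wide interval. It read 18.9 and 6.35 units in the Eph_EN_DN tumours and 43.5 and 76.1 in the Eph_EN tumours (-1.41 ± 0.41, limma adjusted p = 0.213, 95% interval -2.28 to -0.53). The Eph_EN_DN values lay below the array medians of 35.6 to 40.8, where the size of a log difference rests on the pseudocount. Col27a1, another cartilage fibril chain, read 33.2 and 13.6 units in the Eph_EN_DN tumours and 38.2 and 71.2 in the Eph_EN tumours (-0.85), and a second probe set had the opposite sign (0.35). The cartilage chains Col2a1 (0.38) and Col11a2 (0.22) had positive differences at 24.5 to 51.1 units on all arrays. The cartilage proteoglycan Acan read 21.4 and 18.9 units in the Eph_EN_DN tumours and 19.7 and 43.1 in the Eph_EN tumours and was below the filter. Sox9, a transcription factor of cartilage and of some epithelia, read 148 and 148 units in the Eph_EN_DN tumours and 176 and 162 in the Eph_EN tumours (-0.17).

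**Figure D2:**
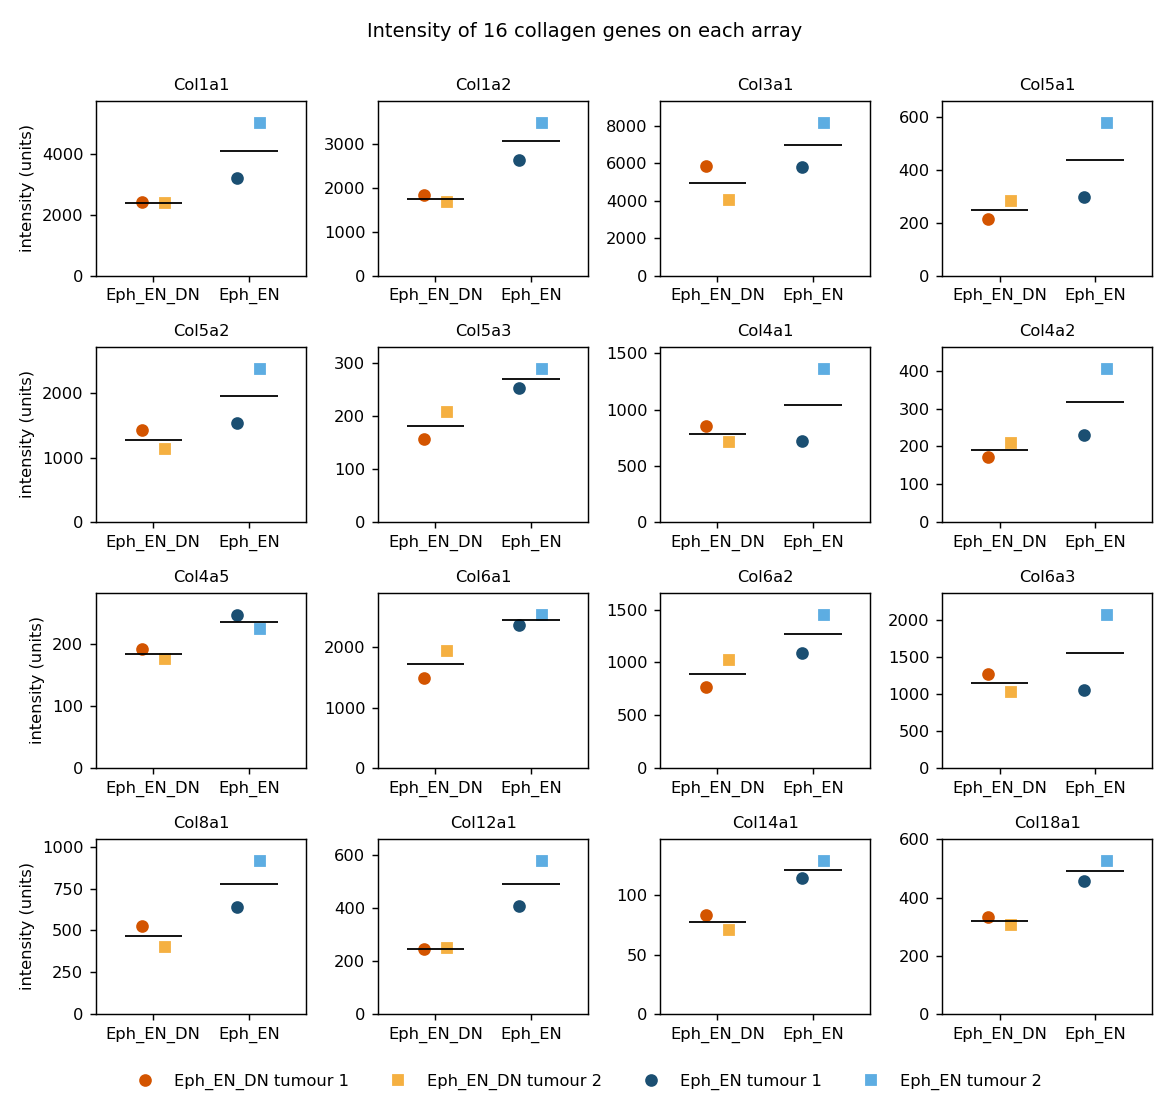
Intensity of 16 collagen genes on each array, with Eph_EN_DN tumours left of Eph_EN tumours in every panel, circles for tumour 1, squares for tumour 2 and lines for the group means. Each panel has its own axis starting at 0. Eph_EN tumour 2 is the highest point in every panel except Col4a5, and the groups overlap in Col3a1, Col4a1 and Col6a3.

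All 6 collagen IV genes, the chains of the basement membrane net, were tested, and 5 had negative differences (median -0.33). The common chains differed in how well they separated the groups. Col4a1 read 852 and 708 units in the Eph_EN_DN tumours and 720 and 1358 in the Eph_EN tumours, so the groups overlapped (-0.34 ± 0.25, limma adjusted p = 0.709). Col4a2 read 171 and 208 units in the Eph_EN_DN tumours and 230 and 405 in the Eph_EN tumours, without overlap (-0.65 ± 0.25, limma adjusted p = 0.397). A dimmer Col4a1 probe set gave -0.88, with 215 and 250 units in the Eph_EN_DN tumours and 343 and 566 in the Eph_EN tumours. In each of these probe sets the highest value was that of Eph_EN tumour 2.

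Col4a1 and Col4a2 are known to be read in opposite directions from a shared promoter. Their windows are shown because the 2 chains assemble together. In RefSeq (GRCm38.p6) the annotated starts lay 21 bases apart on opposite strands, and the windows shared 78 bases. Col4a1 covers chr8:11312777-11313076 on the - strand and Col4a2 covers chr8:11312555-11312854 on the + strand. Capitals mark CCAAT or ATTGG, with 1 match in each.
Col4a1: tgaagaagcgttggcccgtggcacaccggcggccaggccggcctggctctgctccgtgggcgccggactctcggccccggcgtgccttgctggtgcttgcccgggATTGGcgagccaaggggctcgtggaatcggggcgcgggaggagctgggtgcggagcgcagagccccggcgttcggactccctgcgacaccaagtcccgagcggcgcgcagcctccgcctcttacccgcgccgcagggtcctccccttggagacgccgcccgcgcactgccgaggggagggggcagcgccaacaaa
Col4a2: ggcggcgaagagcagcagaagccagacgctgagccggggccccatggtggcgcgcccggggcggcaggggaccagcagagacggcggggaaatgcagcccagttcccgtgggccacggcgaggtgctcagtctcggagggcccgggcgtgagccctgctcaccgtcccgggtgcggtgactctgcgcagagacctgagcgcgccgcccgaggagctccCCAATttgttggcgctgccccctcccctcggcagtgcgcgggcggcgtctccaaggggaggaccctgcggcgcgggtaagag

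The other collagen IV chains make tissue-restricted nets, as in the kidney glomerulus. Col4a5 read 193 and 177 units in the Eph_EN_DN tumours and 247 and 224 in the Eph_EN tumours (-0.32 ± 0.21, limma adjusted p = 0.667), and unlike most members its highest value was in Eph_EN tumour 1. Col4a3 read 37.1 and 28.2 units in the Eph_EN_DN tumours and 63.1 and 43.6 in the Eph_EN tumours (-0.50 ± 0.31, limma adjusted p = 0.636). Col4a4 read 33.1 and 38.6 units in the Eph_EN_DN tumours and 52.1 and 39.5 in the Eph_EN tumours (-0.25 ± 0.31, limma adjusted p = 0.843). On these probe sets the groups did not overlap in the 3 chains, and Col4a3 and Col4a4 lay near the array medians. The other Col4a4 probe sets, both below the filter, had the opposite sign (0.063 and 0.91). Col4a6 had no settled sign. Its brighter probe set read 64.4 and 36.2 units in the Eph_EN_DN tumours and 42.8 and 36.6 in the Eph_EN tumours (0.22). A second probe set read 23.0 and 20.6 units in the Eph_EN_DN tumours and 61.6 and 55.7 in the Eph_EN tumours (-0.98, limma adjusted p = 0.303 with every probe set tested separately).

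Among the FACIT genes 8 of 9 were tested, 5 were negative and the median was -0.21. Col12a1, a large protein on collagen I fibrils in stretched tissue, had the lowest adjusted p of this class. It read 246 and 248 units in the Eph_EN_DN tumours and 409 and 577 in the Eph_EN tumours (-0.93 ± 0.23, limma adjusted p = 0.0876, 95% interval -1.41 to -0.46). A second probe set read 121 and 135 units in the Eph_EN_DN tumours and 272 and 250 in the Eph_EN tumours (-0.95). The groups did not overlap in either of these. Another, dimmer one read 29.5 and 50.1 units in the Eph_EN_DN tumours and 45.4 and 40.3 in the Eph_EN tumours, with overlap (-0.10). On averaging the probe sets of the gene left after the filter, the difference was -0.66 (limma adjusted p = 0.257). A further Col12a1 probe set, below the filter, had the opposite sign (0.48). Col14a1, another protein on the surface of collagen I fibrils, read 83.9 and 70.5 units in the Eph_EN_DN tumours and 115 and 129 in the Eph_EN tumours (-0.57 ± 0.21, limma adjusted p = 0.373). Its other probe sets, both below the filter, had the opposite sign (0.045 and 0.12).

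Col16a1, a minor fibril-associated chain, was at -0.25, and the groups lay close together without overlap, with 219 and 219 units in the Eph_EN_DN tumours and 226 and 307 in the Eph_EN tumours. The collagen IX chains, which coat cartilage fibrils, pointed both ways: Col9a1 was at -0.33 and Col9a3 at 0.60. A second Col9a1 probe set was at -0.068, with overlap. Col9a3 read 33.2 and 60.3 units in the Eph_EN_DN tumours and 18.3 and 31.6 in the Eph_EN tumours (limma adjusted p = 0.64). Col19a1 had the largest positive difference of the family, at dim values. It read 31.6 and 56.1 units in the Eph_EN_DN tumours and 26.0 and 5.03 in the Eph_EN tumours (0.98 ± 0.47, limma adjusted p = 0.516). The difference was 1.76 with a pseudocount of 1 and 0.44 with one of 64, and the other 2 probe sets of Col19a1, both below the filter, had the opposite sign (-0.097 and -0.16). Col20a1 (0.024) and Col22a1 (-0.16) were near 0 on their brightest probe sets. A second Col20a1 probe set was at -0.31, with overlap.

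Of the 16 other genes 10 were tested, 7 were negative and the median was -0.44. Collagen VI forms beaded filaments between fibrils and cells, and its 3 main chains had differences of like size. Col6a1 read 1491 and 1944 units in the Eph_EN_DN tumours and 2372 and 2534 in the Eph_EN tumours (-0.52 ± 0.19, limma adjusted p = 0.35). Col6a2 read 767 and 1019 units in the Eph_EN_DN tumours and 1091 and 1447 in the Eph_EN tumours (-0.50 ± 0.22, limma adjusted p = 0.457). Col6a3 read 1269 and 1021 units in the Eph_EN_DN tumours and 1056 and 2065 in the Eph_EN tumours (-0.37 ± 0.26, limma adjusted p = 0.685). The groups were apart in Col6a1 and Col6a2 and overlapped in Col6a3. Col6a4, an additional chain, was at 0.032, with 56.5 and 68.4 units in the Eph_EN_DN tumours and 47.5 and 76.2 in the Eph_EN tumours. A dimmer Col6a4 probe set read 27.2 and 48.3 units in the Eph_EN_DN tumours and 14.5 and 24.1 in the Eph_EN tumours, without overlap (0.59).

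The Col6a1 promoter is shown because it alone among the collagen windows held TGANTCA, with any base at N. This pattern covers AP-1 sites such as TGACTCA and, as a pattern, reads the same on both strands. The window is chr10:76725995-76726294 on the - strand (RefSeq, GRCm38.p6), and capitals mark the match.
Col6a1: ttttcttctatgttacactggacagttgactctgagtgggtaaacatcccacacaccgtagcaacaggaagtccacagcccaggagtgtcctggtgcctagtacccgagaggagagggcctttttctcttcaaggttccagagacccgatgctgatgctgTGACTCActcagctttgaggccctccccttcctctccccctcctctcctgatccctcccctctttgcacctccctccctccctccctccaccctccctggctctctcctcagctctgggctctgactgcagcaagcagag

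Promoter windows of 33 of the 42 collagen genes (36 windows), among them 25 of the 34 tested, were in the RefSeq table. Col1a1 and Col12a1 had no window there and were not searched. TGANTCA was in 1 of these 36 windows (2.78%), against 7.81% of all 32851 windows. These shares count every base at N and so are not shares of AP-1 sites alone. CCAAT or ATTGG was in 13 (36.1%), against 37.4% of all. TATAAA or TTTATA was in 5 (13.9%), against 13.6%, and GGGCGG or CCGCCC, the letters of a GC box, in 22 (61.1%), against 35.7%. Both strands were searched, none of these motifs contains another, a match is a description of letters only, and sites outside the windows were not searched.

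Of the remaining members, Col8a1, a chain of a hexagonal net made by vascular and other mesenchymal cells, read 524 and 402 units in the Eph_EN_DN tumours and 641 and 913 in the Eph_EN tumours. The groups did not overlap (-0.72 ± 0.23, limma adjusted p = 0.267), and 2 further probe sets gave -0.82 and -1.02. Col18a1, a basement membrane chain whose end fragment is endostatin, read 331 and 305 units in the Eph_EN_DN tumours and 458 and 524 in the Eph_EN tumours (-0.60 ± 0.21, limma adjusted p = 0.332). Its relative Col15a1 read 38.8 and 73.0 units in the Eph_EN_DN tumours and 59.7 and 142 in the Eph_EN tumours, with overlap (-0.65 ± 0.31). Col7a1, the anchoring fibril chain under stratified epithelia, was at -0.15 (limma adjusted p = 0.875). The transmembrane chain Col23a1 was at 0.57, with 52.9 and 76.8 units in the Eph_EN_DN tumours and 47.1 and 30.2 in the Eph_EN tumours, and Col26a1 was at 0.12.

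The 8 genes below the filter were Col8a2, Col9a2, Col10a1, Col13a1, Col17a1, Col24a1, Col25a1 and Col6a5. They read 1.38 to 47.1 units in the Eph_EN_DN tumours and 3.74 to 34.1 in the Eph_EN tumours. Col10a1, a marker of hypertrophic cartilage, read 18.3 to 27.3 units over the 4 arrays. Col17a1, a hemidesmosome protein of basal epithelium, read 1.68 to 31.0 units. Both were thus below the array medians.

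Negative differences were concentrated in bright probe sets. All 19 collagen genes above the 75th brightness percentile of all probe sets had negative differences (median -0.55), where 3457 of 6884 genes tested in that range did (median -0.0015). Of the 15 dimmer collagen genes tested, 6 were negative (median 0.032), as were 2909 of 6447 genes in that range. The 9 positive collagen genes lay at percentiles 40.1 to 72.5. This split was chosen after the values were seen and was not tested.

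**Figure D3:**
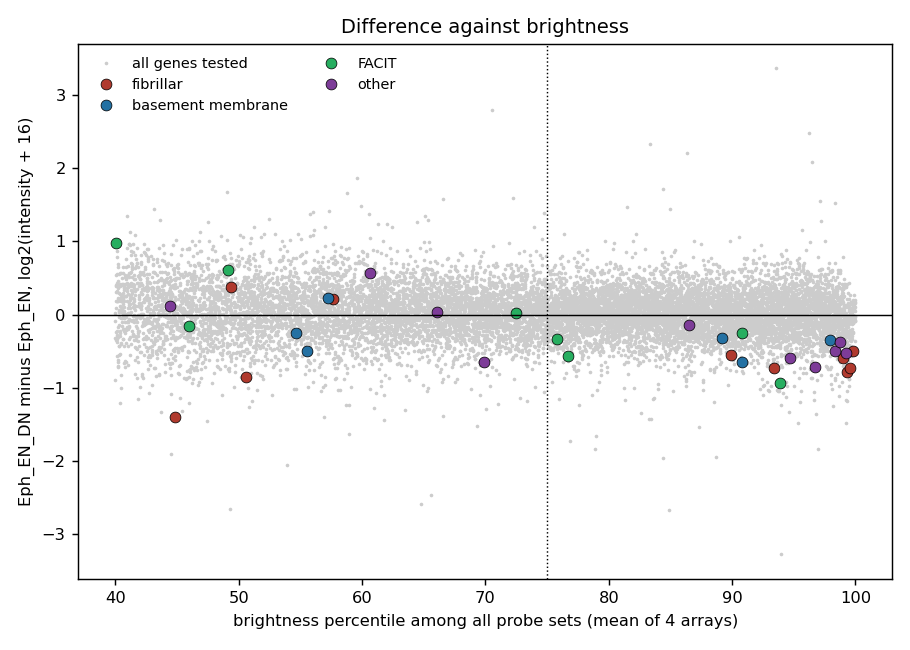
Difference between Eph_EN_DN and Eph_EN tumours on the scale log2(intensity + 16) against the brightness percentile of the probe set, for all 13331 genes tested (grey) and the 34 collagen genes (colour by class). The dotted line marks percentile 75, and all 19 collagen genes right of it lie below 0.

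The size of the differences depended on Eph_EN tumour 2 in the fibrillar and other classes. Without that tumour the fibrillar median was -0.35 (-0.66 with all tumours) and that of the other genes -0.21 (-0.44 with all tumours). The basement membrane median was -0.33 with and without it, and the FACIT median was -0.24 without it and -0.21 with it. Without Eph_EN tumour 2 the median of all collagen genes was -0.29, the difference of Col1a1 was -0.41, of Col5a1 -0.27 and of Col3a1 -0.25, and Col4a1 (0.11) and Col6a3 (0.11) were positive. Col15a1 (-0.11), Col16a1 (-0.042), Col4a2 (-0.27) and Col5a2 (-0.28) were also closer to 0 without it. Col4a3 (-0.71), Col4a4 (-0.40), Col4a5 (-0.39) and Col9a1 (-0.54) were farther from 0 without it. Col1a2 (-0.59), Col12a1 (-0.69), Col18a1 (-0.51) and Col6a1 (-0.47) were less affected. Without Eph_EN tumour 1 the median was -0.60, and 8 collagen genes fell with limma adjusted p under 0.05, against 0.66% of all genes that were lower in that fit. These were Col1a1 (-1.05), Col12a1 (-1.17), Col5a1 (-1.18), Col1a2 (-0.98), Col4a2 (-1.04), Col15a1 (-1.18), Col8a1 (-0.97) and Col5a2 (-0.90). That fit takes the spread of the lone Eph_EN tumour from the other group. The median was -0.34 without Eph_EN_DN tumour 1 and -0.39 without Eph_EN_DN tumour 2.

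**Figure D4:**
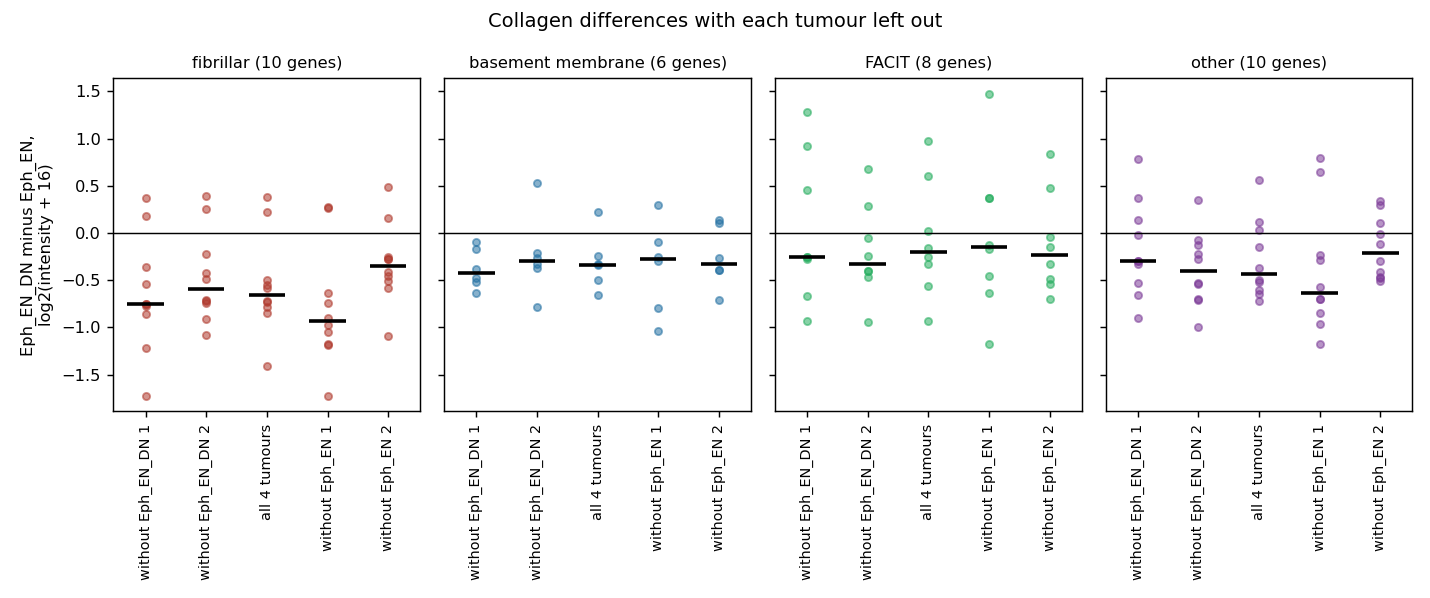
Differences of the collagen genes in each class, on the scale log2(intensity + 16), with all 4 tumours (middle) and with each tumour left out in turn. Points are genes and lines their medians; the fibrillar median was -0.66 with all tumours, -0.94 without Eph_EN tumour 1 and -0.35 without Eph_EN tumour 2, and the basement membrane median was -0.33 both with all tumours and without Eph_EN tumour 2.

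Genes that make, process, bind and degrade collagen gave 2 calls, both lower, where 0.42% of all genes were lower and 0.135% higher. Of 17 synthesis and folding genes tested, 15 were negative, 0 passed and the median was -0.25. Serpinh1, the collagen chaperone HSP47, read 388 and 412 units in the Eph_EN_DN tumours and 793 and 696 in the Eph_EN tumours (-0.87 ± 0.21, limma adjusted p = 0.0859). Sparc, a matricellular protein that binds collagen, was at -0.84 (limma adjusted p = 0.0527). The prolyl hydroxylases P4ha1 (0.12) and P4ha2 (0.20) and the lysyl hydroxylase Plod2 (-0.0053) had groups that overlapped.

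Of 4 propeptide cleavage genes tested, 1 fell. Pcolce2, an enhancer of procollagen cleavage, read 93.6 and 62.3 units in the Eph_EN_DN tumours and 148 and 249 in the Eph_EN tumours (-1.17 ± 0.25, limma adjusted p = 0.0481). The related Pcolce was at -0.087. The call of Pcolce2 did not hold in 9 of 14 alternative fits, including those without Eph_EN_DN tumour 1 (-1.41) or 2 (-0.93) and without Eph_EN tumour 2 (-0.82). Of 6 fibril-associated genes tested, 1 fell. Bgn, the fibril-binding proteoglycan biglycan, read 1422 and 1755 units in the Eph_EN_DN tumours and 2712 and 3988 in the Eph_EN tumours (-1.05 ± 0.20, limma adjusted p = 0.028). Its call did not hold in 6 of 14 alternative fits, including those without Eph_EN_DN tumour 1 (-0.90) or 2 (-1.20) and without Eph_EN tumour 2 (-0.77). Dcn, the related proteoglycan decorin, had the opposite sign (0.27 ± 0.17, limma adjusted p = 0.653), with 3519 and 3729 units in the Eph_EN_DN tumours and 2708 and 3337 in the Eph_EN tumours.

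None of the 5 crosslinking genes tested passed. Their median was -0.37, and the values farthest from 0 were those of the lysyl oxidase relatives Loxl1 (-1.05 ± 0.24, limma adjusted p = 0.0653) and Loxl3 (-0.39). Loxl4 was of nearly the same size as Loxl3 with the opposite sign (0.39), and its groups did not overlap. None of 8 collagen receptor genes passed (median -0.21), with Mrc2, which takes up collagen fragments, at -0.58 and Lair1, an inhibitory receptor of leukocytes, at -0.43. The receptors Ddr1 (0.37) and Gp6 (0.31) were positive, with groups that did not overlap. None of 5 degradation genes passed (median -0.42), with the gelatinase Mmp2 at -0.98 and cathepsin K, Ctsk, at -0.69. Mmp13 was positive (0.38), with groups that overlapped. At an unadjusted limma p under 0.05, 4 synthesis, 1 propeptide, 3 fibril-associated, 1 crosslinking, 0 receptor and 2 degradation genes were lower, against 4.94% of all genes. In the other direction 1 was higher, against 4.86% of all genes: Fmod, the fibril-associated proteoglycan fibromodulin (0.89, limma unadjusted p = 0.023, adjusted p = 0.413). Fmod read 294 and 464 units in the Eph_EN_DN tumours and 338 and 107 in the Eph_EN tumours, so the groups overlapped. Without Eph_EN tumour 2 its difference was 0.12. The fibril-associated list had a median of -0.056.

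Values of cell type markers are given beside those of the collagen genes, and their part in the result was not tested. No fibroblast, endothelial, pericyte and smooth muscle or macrophage marker passed, against 0.42% of all genes lower and 0.135% higher. Of 14 fibroblast markers outside the collagens, 13 were on the array, 12 were tested, 9 were negative and 0 passed (median -0.35). Their summed intensity was 16732 and 15791 units in the Eph_EN_DN tumours and 18957 and 21831 in the Eph_EN tumours, highest in Eph_EN tumour 2 as for most collagen genes. Fn1 was the largest part of each sum. The fibroblast list shares Dcn, Lum, Dpt and Fn1 with the fibril-associated list, so the lists are not separate. Among the fibroblast markers Postn (-0.71), Lum (-1.07) and Thy1 (-0.96) were negative, and Dpt (0.25), Pdpn (0.089) and Dcn were positive. Of 10 endothelial markers 7 were tested, all of them negative (median -0.62), with summed intensities of 504 and 568 units in the Eph_EN_DN tumours and 662 and 938 in the Eph_EN tumours. Of 9 pericyte and smooth muscle markers 7 were tested, 4 were negative and the median was -0.058, with sums of 1559 and 1413 units in the Eph_EN_DN tumours and 1633 and 1941 in the Eph_EN tumours.

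Adipocyte markers ran the other way. Of 10, 8 were on the array, 7 were tested, all were positive and 4 rose (Car3, Fabp4, Adipoq and Retn), with sums of 1728 and 6490 units in the Eph_EN_DN tumours and 898 and 667 in the Eph_EN tumours. Eph_EN_DN tumour 2 had the highest value in all 7. Without it Car3 still passed. Adipoq was then at 1.06 (2.33 with all tumours), Fabp4 at 1.32 (2.47) and Retn at 0.83 (1.59), and none of these passed. The call did not hold in 10 of 14 alternative fits for Adipoq, 7 for Fabp4, 10 for Retn and 2 for Car3. Of 8 macrophage markers tested 7 were negative (median -0.39), with sums of 10459 and 8028 units in the Eph_EN_DN tumours and 14980 and 13082 in the Eph_EN tumours. Markers of the labelled cell type, mammary epithelium, were present: Krt8 read 1596 and 1470 units in the Eph_EN_DN tumours and 2048 and 2017 in the Eph_EN tumours, while Krt19 was dim (3.41 to 15.8 units). Their sums were 2951 and 3210 units in the Eph_EN_DN tumours and 3575 and 3819 in the Eph_EN tumours, with 5 of 9 tested negative (median -0.20). Krt8 was the largest part of each sum. The 4 positive epithelial markers were Krt14 (0.67), Cldn4 (0.46), Krt7 (0.32) and Cdh1 (0.15), all with groups that overlapped. The 5 negative ones were Krt5 (-0.63), Cldn7 (-0.47), Krt8 (-0.40), Krt18 (-0.36) and Epcam (-0.20). Among these the groups overlapped in Epcam only, so the basal keratins Krt5 and Krt14 had opposite signs. Krt14 read 157 and 425 units in the Eph_EN_DN tumours and 167 and 149 in the Eph_EN tumours. Of 3 chondrocyte and bone markers tested 1 fell (Ibsp, bone sialoprotein, -1.64 ± 0.33, limma adjusted p = 0.0376), a call that did not hold in 8 of 13 alternative fits, including those without Eph_EN_DN tumour 2 (-1.28) and without Eph_EN tumour 1 (-1.21). The list's sums were 305 and 328 units in the Eph_EN_DN tumours and 453 and 403 in the Eph_EN tumours. Of 4 skeletal muscle markers tested 1 rose (median 0.22), with sums of 392 and 426 units in the Eph_EN_DN tumours and 238 and 281 in the Eph_EN tumours. This was Myh1, a muscle myosin, at 1.39 (limma adjusted p = 0.0092), a call that did not hold in 4 of 14 alternative fits, including that without Eph_EN_DN tumour 2 (1.30). Of 3 Schwann cell markers tested 2 were negative (median -0.47), with sums of 177 and 233 units in the Eph_EN_DN tumours and 281 and 303 in the Eph_EN tumours. No marker was listed at 0.

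RNA quality measures differed between the groups too. Signal from the 3' end over that from the 5' end was 1.17 and 1.11 for Gapdh in the Eph_EN_DN tumours and 0.938 and 1.04 in the Eph_EN tumours, and for beta-actin 1.31 and 1.34 in the Eph_EN_DN tumours and 1.11 and 1.19 in the Eph_EN tumours. The 18S control probe sets averaged 6.76 and 7.43 on the log2 scale in the Eph_EN_DN tumours and 5.43 and 6.40 in the Eph_EN tumours. Their part in the collagen differences was not tested.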

How the data were processed

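Per the labels, total RNA was extracted with Trizol, column-cleaned, labelled with biotin and hybridised to 1 array per tumour. The deposited values are linear intensities of 45101 probe sets. The authors' summarisation, background correction and scaling are not given in the sources used here. There were no detection calls, and precision is limited by having 4 arrays.

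Gene symbols came from the platform annotation (34945 with 1 symbol, 932 with several, 9160 with none, 64 controls). The log2 of intensity plus 16 was tested with limma 3.58.1 in R 4.3.3 (intensity trend, Benjamini-Hochberg over 13331 genes, two-sided) after leaving out controls and the dimmest 40% of probe sets, on the brightest probe set per gene. The fit was tested on simulated data. Brightness was taken over all 4 arrays in every alternative. Collagen genes, classes and lists were chosen with earlier results of these data known. Every tested member is named. From each pathway list the text names members that passed or, failing any, the 2 farthest from 0; others were named after their values were seen. Deviations of equally numbered tumours from their group means correlated at -0.065 across genes, and nothing in the labels ties the numbers together. Plots were drawn with matplotlib.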

Additional observations from a re-analysis of the deposited data

How the results depend on the processing

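With 2 tumours a group, no collagen gene was called higher in any fit, and the collagen median kept its sign in all of them. Its value was -0.60 to -0.29 with each tumour left out. Collagen genes called lower numbered 1 with no filter on dim probe sets (Col12a1), 2 at an adjusted p threshold of 0.10 (Col12a1 and Col1a2) and 0 to 8 with a tumour left out. Over all genes, those called higher and lower numbered 9 and 29 with quantile normalization, 7 and 48 with median centring, 7 and 28 on averaging the probe sets of each gene, 1 and 4 with no intensity trend, 3 and 8 with the replicate block, 29 and 82 at a threshold of 0.10 and 4 and 13 at 0.01. With a tumour left out they were 9 to 90 and 9 to 105. The replicate block left 0 collagen genes called. Of 465 recomputed collagen differences 15 changed sign, in 6 genes. Settings of the filter, intensity trend, variance prior and replicate block leave a gene's difference unchanged, so those values could not change sign. The trend, prior and block settings likewise leave the collagen median unchanged. Col20a1 was at -0.013 with quantile normalization, -0.074 with median centring, -0.14 with probe sets averaged and -0.40 to 0.45 with a tumour left out. Col6a4 was at -0.024 with quantile normalization, -0.066 with median centring, 0.31 with probe sets averaged and -0.24 to 0.30 with a tumour left out. Col4a6 was at -0.38 with probe sets averaged and -0.091 to 0.53 with a tumour left out. Col26a1 ranged from -0.41 to 0.65, Col4a1 from -0.79 to 0.11 and Col6a3 from -0.85 to 0.11 with a tumour left out. The causes were not tested. Dim members are limited by signal over background.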
